A study of Mus musculus with 26 samples.

Results

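The genes described here are 9 that mark the tissue-resident macrophages lying along the blood vessels of fat: Lyve1, Mrc1, Cd163, Timd4, Folr2, F13a1, Retnla, Mgl2 and Clec10a. They were picked by gene symbol from both tables of gene counts, where each has 1 row, out of 39017 gene rows in all. The study asked which transcripts that change in obesity stay changed after weight loss, and sequenced RNA from adipocytes and stromal vascular cells (SVCs) of the epididymal fat pads of male wild type C57BL/6J mice. Diets began at 9 to 10 weeks of age. LFD mice ate a 10% fat diet for 12 weeks, and HFD mice a diet with 60% of its calories from fat for 12 weeks. SW mice ate the HFD for 9 weeks and then the LFD for 3 weeks, which lowers body weight. The titles of the SW samples call these mice LFD fed, and their treatment label, which gives the switch, was used. Fat was digested with collagenase, and adipocytes were taken as the cells that float and SVCs as those that sediment, the latter after lysis of red cells. No sorting step followed, so each fraction can hold more than 1 cell type. The libraries used were 3 LFD, 3 HFD and 3 SW of adipocytes, and 1 LFD, 2 HFD and 3 SW of SVCs, lettered A, B and C within each group by the number in their column. The labels list 3 libraries in every group, but no further column could be matched to the LFD or HFD group of SVCs.

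Resident macrophages of fat take up lipoproteins, debris and dying cells through scavenger and lectin receptors, and many of their surface genes are used to separate them from macrophages that arrive as monocytes in obesity. Mrc1 encodes the mannose receptor, Cd163 the receptor for complexes of haptoglobin and hemoglobin, Folr2 a folate receptor, Lyve1 a hyaluronan receptor also made by lymphatic endothelium, and Timd4 the phosphatidylserine receptor TIM4. Clec10a and Mgl2 encode the paired galactose-type lectins MGL1 and MGL2, which dendritic cells also make, while F13a1 encodes the A chain of coagulation factor XIII and Retnla the secreted protein RELMα. IL-4 and IL-13, acting through the transcription factor STAT6, are the textbook inducers of Retnla, Mrc1 and Mgl2 in mouse macrophages.

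The bases ahead of the transcript start are shown for the member that fell most on the HFD and the 2 that rose most, since they are the clearest case of members that moved apart and together. They come from RefSeq's promoter windows on GRCm38.p6, a later build than the mm9 that the submitters' processing notes name. Of the 9 members, 7 have such a window. The 3 letter patterns below were searched on both strands of each window: TTC and GAA with any 4 bases between them (STAT6), GAGGAA (PU.1) and TGCTGA (the core of the MAF site). Each sequence is written 5′ to 3′ on the gene's own strand, and its capitals mark the matches to 1 of these, STAT6 for Retnla, PU.1 for Mrc1 and MAF for Folr2.
Retnla: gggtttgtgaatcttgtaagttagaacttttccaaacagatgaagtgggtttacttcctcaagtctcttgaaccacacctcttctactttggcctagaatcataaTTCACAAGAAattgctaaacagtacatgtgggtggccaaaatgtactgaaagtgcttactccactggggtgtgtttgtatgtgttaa
Mrc1: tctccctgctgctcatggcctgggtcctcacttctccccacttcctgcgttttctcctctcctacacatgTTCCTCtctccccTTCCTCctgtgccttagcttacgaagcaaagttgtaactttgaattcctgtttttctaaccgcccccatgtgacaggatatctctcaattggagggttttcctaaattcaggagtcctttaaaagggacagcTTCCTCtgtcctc
Folr2: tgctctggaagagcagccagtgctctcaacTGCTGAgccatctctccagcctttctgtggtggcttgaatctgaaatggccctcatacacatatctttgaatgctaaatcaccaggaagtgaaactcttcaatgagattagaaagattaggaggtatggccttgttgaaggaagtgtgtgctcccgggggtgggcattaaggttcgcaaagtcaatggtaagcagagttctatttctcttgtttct
The Retnla stretch lies at chr16:48842359-48842550 on the plus strand, and its STAT6 letters begin 145 bases before the start that RefSeq's window is built on. That pattern occurs in 6.95% of the 32851 windows of 300 bases in the table and in no other member's window. The Mrc1 stretch, at chr2:14229164-14229391 on the plus strand, has the PU.1 letters in reverse complement at 180, 167 and 35 bases before the start. PU.1 letters occur in 28.3% of all windows. For Folr2, at chr7:101857195-101857440 on the minus strand, the capitals mark the MAF core at 220 bases before the start, a pattern found in 19.5% of windows. Another Folr2 window, at chr7:101845282-101845581, is not shown and has the MAF core at 19 bases before its own start. The Retnla window also holds 1 PU.1 and 1 MAF match, which overlap neither each other nor the STAT6 letters. All are matches of letters and not measured sites.

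Totals ran from 6142895 to 23725647 counts in the adipocyte libraries and from 5781902 to 22195810 in the SVC libraries. Levels are given as CPM, counts scaled to a common library size with TMM factors within each fraction, unless they are said to be scaled over both. The adipocyte label was borne out by Adipoq, the adiponectin gene, at 794.2 to 4366 CPM in adipocytes and 12.8 to 68.5 CPM in SVCs. The 2 HFD libraries of SVCs stood apart from each other. Mitochondrial transcripts made up 6.34% of library A and 33.5% of library B, against 4.36% to 9.54% in the other SVC libraries, and hemoglobin transcripts 0.287% and 3.09%, against 2.76% to 5.15%. Library A and the LFD library carry column numbers that lie apart from those of the other SVC libraries, and no label carries any of these numbers, so the group of library A rests on its column name alone. Whether library A is labelled correctly could not be settled, and it is the library labelled HFD wherever it is named. Tests of members in SVCs that use these 2 libraries are also given with each left out.

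In adipocytes, 5 of the 9 members rose and 1 fell between LFD and HFD mice. Folr2 rose 7.86-fold, Mrc1 5.00-fold, Clec10a 2.56-fold, F13a1 1.85-fold and Cd163 1.53-fold, whereas Retnla fell 3.81-fold. Lyve1, Timd4 and Mgl2 did not pass the test. Over all 14461 genes tested, 26.5% rose and 25.0% fell, and the median log2 fold change was -0.03 over all genes and 0.62 over the members. Calls are those of edgeR's quasi-likelihood test at a Benjamini-Hochberg adjusted p under 0.05.

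Folr2 stood at 38.0, 35.9 and 28.2 CPM in the LFD libraries and at 287.6, 243.3 and 272.0 CPM in the HFD libraries. Every HFD library thus lay far above every LFD library. The means were 34.0 ± 5.18 and 267.6 ± 22.5 CPM (SD, n = 3), with a log2 fold change of 2.97 (standard error, SE, 0.19, adjusted p = 6.26e-06, edgeR). Mrc1 read 76.5, 74.8 and 52.2 CPM in LFD and 415.3, 252.7 and 350.2 CPM in HFD libraries, again without overlap. Its log2 fold change was 2.32 (SE 0.21, adjusted p = 2.43e-05, edgeR).

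Clec10a, the lectin MGL1, was at 58.5, 62.9 and 46.9 CPM in LFD and 140.5, 131.4 and 160.4 CPM in HFD libraries. The HFD values were all above the LFD values, with a log2 fold change of 1.36 (SE 0.16, adjusted p = 0.000116, edgeR). Its neighbour on chromosome 11 and close relative Mgl2 did not follow. Mgl2 was measured at 31.7, 29.0 and 22.1 CPM in LFD and 20.2, 28.4 and 22.6 CPM in HFD libraries, which overlapped, and its log2 fold change was -0.21 (SE 0.19, adjusted p = 0.374, edgeR). Of the 100-base windows of their longest transcripts in GENCODE M21, 5.92% for Mgl2 and 4.08% for Clec10a are identical in the other gene, so some of their reads can have been divided between both by RSEM. The other 7 members share no such window with any other gene.

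Retnla went the other way. It was at 533.7, 701.1 and 536.9 CPM in the LFD libraries, and at 139.8, 170.7 and 154.0 CPM in the HFD libraries. The lowest LFD library was above the highest HFD library. The means were 590.5 ± 95.7 and 154.8 ± 15.5 CPM (SD, n = 3), with a log2 fold change of -1.93 (SE 0.19, adjusted p = 4.29e-05, edgeR).

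F13a1 ranged from 47.9 to 75.9 CPM in LFD and from 103.1 to 139.2 CPM in HFD libraries (log2 fold change 0.88, adjusted p = 0.00514, edgeR). Cd163 ranged from 14.4 to 26.2 CPM in LFD and from 30.6 to 36.6 CPM in HFD libraries. Its call was the least firm of the 6: the adjusted p was 0.0432 (edgeR), 0.0805 with upper-quartile scaling, and between 0.0285 and 0.131 when 1 library was left out, with 5 of those 6 fits above the threshold. Lyve1 ranged from 9.75 to 17.1 CPM in LFD and from 19.7 to 23.5 CPM in HFD libraries, a log2 fold change of 0.61 that did not pass (SE 0.28, adjusted p = 0.0932, edgeR). Timd4, the TIM4 gene, was the lowest member, with 13 to 46 counts per LFD library and 9 to 29 per HFD library. It read 1.71 to 2.37 CPM in LFD and 0.676 to 1.30 CPM in HFD libraries, and its log2 fold change of -0.99 did not pass either (SE 0.41, adjusted p = 0.0644, edgeR). Lyve1 and Timd4 both passed when only HFD and LFD adipocytes were fitted, where 8 members and 54.5% of all genes were called. Neither passed with any 1 library left out. The groups did not overlap for 8 of the 9 members, Mgl2 being the exception, and for 62.7% of all genes tested.

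**Figure D1:**
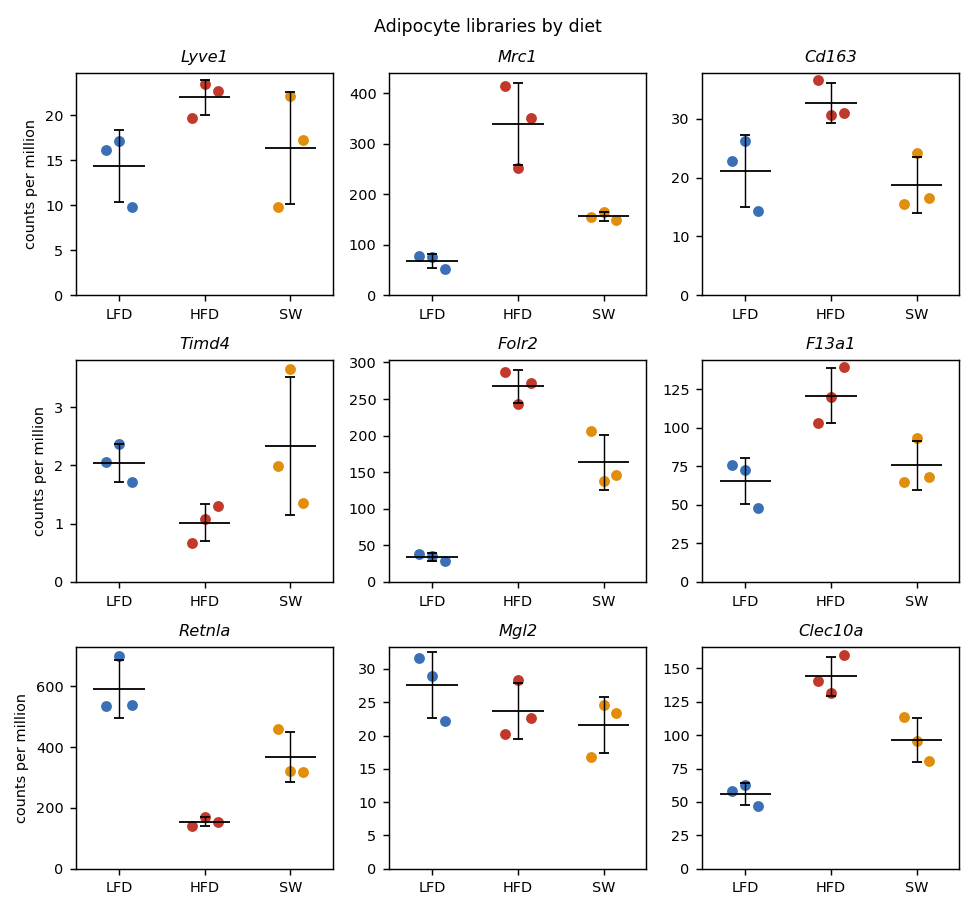
Each panel shows 1 member in the 9 adipocyte libraries, as CPM on a linear axis from 0, with the libraries as points, the mean of 3 as a line and 1 SD as a bar. Folr2 and Mrc1 lie far higher in HFD than in LFD libraries and in between in SW libraries, whereas Retnla is highest in LFD and lowest in HFD libraries.

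After the diet switch, 7 of the 9 members differed from the HFD level in adipocytes. Mrc1, Cd163, Folr2, F13a1 and Clec10a fell and Retnla and Timd4 rose. Among all genes tested 15.9% fell and 15.6% rose between HFD and SW, and the median log2 fold change was -0.58 over the members and 0.01 over all genes. The 3 adipocyte comparisons share their libraries in pairs and are not independent of each other. Against LFD, Folr2, Mrc1 and Clec10a were still higher in SW mice, where 10.9% of all genes were higher, and Retnla was still lower, where 6.18% were lower.

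Mrc1 was at 153.8, 164.7 and 148.7 CPM in the SW libraries, below every HFD and above every LFD library. Against HFD its log2 fold change was -1.12 (SE 0.20, adjusted p = 0.00605, edgeR), and against LFD 1.20 (SE 0.20, adjusted p = 0.00284, edgeR). The distance back was 48.4% of the rise on the HFD, on the log2 scale, as are the percentages that follow. They carry no error, both changes in each use the HFD libraries, and they would differ on the CPM scale, so members are not ranked by them. Folr2, at 206.8, 137.6 and 145.6 CPM, also lay between both groups with no overlap, and moved back by 24.0% of its rise. It remained 4.79-fold above LFD (log2 fold change 2.26, SE 0.19, adjusted p = 5.62e-05, edgeR) and 1.64-fold below HFD (adjusted p = 0.0162, edgeR).

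Retnla rose to 460.4, 322.7 and 318.8 CPM, above each HFD library and below each LFD library. The log2 fold change was 1.25 against HFD (SE 0.19, adjusted p = 0.0043, edgeR) and -0.69 against LFD (SE 0.19, adjusted p = 0.0315, edgeR), a return of 64.5%. The difference from LFD was lost when only SW and LFD were fitted (adjusted p = 0.0628, edgeR) and ranged up to an adjusted p of 0.118 (edgeR) with 1 library left out, where 2 of 6 fits kept it.

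Clec10a moved back by 42.5% to 80.7 to 113.6 CPM, F13a1 by 76.4% to 64.7 to 93.6 CPM, and Cd163 by 128.7%, past its LFD mean, to 15.5 to 24.2 CPM. The Cd163 percentage rests on a small rise, a log2 fold change of 0.62 with SE 0.23. Of these 3, Clec10a alone stayed apart from LFD (1.72-fold, adjusted p = 0.00802, edgeR). Timd4 was at 1.995, 3.66 and 1.36 CPM in the SW libraries, 2.27-fold above HFD (adjusted p = 0.0451, edgeR), on 19, 61 and 19 counts. Without SW library B, which holds the highest value, its adjusted p was 0.214 (edgeR). Lyve1 (9.77 to 22.1 CPM) and Mgl2 (16.8 to 24.6 CPM) overlapped with both other groups and passed in neither comparison.

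The number of members called between SW and HFD depended on single libraries. It was 3 without HFD library A, 2 without HFD library C, 4 without SW library A and 3 without SW library C, against 7 with all. The share of all genes called fell in the same fits, from 31.4% to 15.4%, 10.3%, 23.2% and 23.4%. Mrc1 and Retnla passed in all 6 of these fits, and the direction was kept in every one of them for each member except Mgl2.

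**Figure D2:**
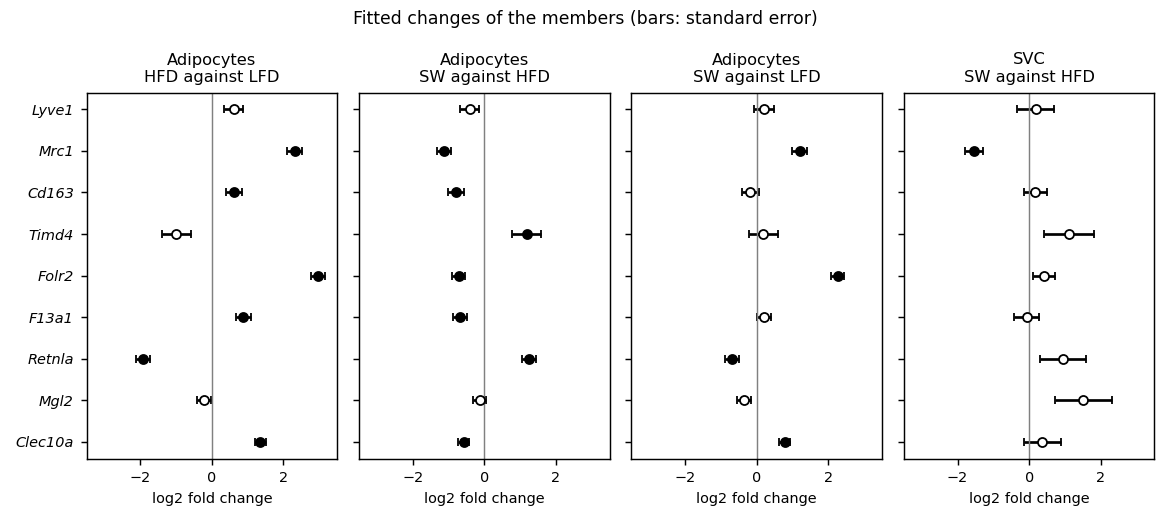
Log2 fold changes of the 9 members with their standard errors in 4 comparisons, with filled points for an adjusted p under 0.05 and open points otherwise. Folr2 and Mrc1 lie furthest to the right and Retnla furthest to the left between HFD and LFD adipocytes, and in SVCs Mrc1 alone is filled.

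Divided by the length of the longest transcript, levels can be set side by side between genes. In LFD adipocytes Retnla led at 985.9 CPM per kilobase (SD 159.8, n = 3), followed by Folr2 at 28.3 (SD 4.30) and Clec10a at 24.0 (SD 3.54), which do not differ beyond their spread. Mgl2 at 16.9, F13a1 at 16.5 and Mrc1 at 12.6 CPM per kilobase came next, then Lyve1 at 4.96 and Cd163 at 4.75, and Timd4 at 0.942. In HFD adipocytes Retnla at 258.4 (SD 25.8) and Folr2 at 222.3 CPM per kilobase (SD 18.7) were close to each other, and Mrc1 at 63.2 and Clec10a at 61.8 followed. Retnla was again the highest in SW adipocytes, at 613.2 CPM per kilobase against 135.7 for Folr2.

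RNA of macrophages as a whole increased in the same adipocyte libraries. Of 12 pan-macrophage markers, 11 were higher in HFD than in LFD adipocytes, and their median log2 fold change was 2.92. Adgre1, which encodes F4/80, rose with a log2 fold change of 4.49 and Csf1r, the receptor for the macrophage growth factor CSF1, with 2.82 (adjusted p = 6.04e-06 and 1.36e-05, edgeR). The summed level of these markers was 729.6 to 1191 CPM in LFD, 8311 to 9534 CPM in HFD and 6203 to 9447 CPM in SW libraries, and none was at 0 in a group. The markers of lipid-associated macrophages, a state with genes of lipid handling such as Trem2 and Gpnmb, were higher in HFD for 12 of 12. In bulk RNA, more cells of a type and more RNA per cell cannot be told apart.

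Set over the summed counts of the 12 macrophage markers of the same library, all 9 members were lower in HFD than in LFD adipocytes. The sum itself rose so far that 98.0% of all genes tested were lower on this scale, and the median gene was 9.32-fold less, against a median of 5.61-fold less for the members. Being lower is therefore no result about the members, and 3 of them, Retnla, Timd4 and Mgl2, were reduced by more than the median gene. Of these, Timd4 and Mgl2 had not passed between LFD and HFD (adjusted p = 0.0644 and 0.374, edgeR), and Mgl2 lay close to the median gene. Retnla counts equalled 45.3% to 73.6% of the macrophage marker counts in LFD, 1.51% to 2.05% in HFD and 4.87% to 5.14% in SW libraries. That is 34.0-fold less in HFD than in LFD, and 2.92-fold more in SW than in HFD. Timd4 fell 18.5-fold on this scale, Mgl2 10.4-fold, Lyve1 5.68-fold, Cd163 5.62-fold, F13a1 4.79-fold, Clec10a 3.47-fold and Mrc1 1.80-fold, each without overlap between the groups, as for 95.0% of all genes. Folr2, at 3.02% to 3.86% in LFD and 2.85% to 3.10% in HFD libraries, overlapped. Set over Csf1r alone it was 0.13 higher in HFD on the log2 scale, with overlap, and over the list without Lyz2, Cd68 and Cd14 it was 0.19 higher, without overlap.

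The exact two-sided permutation test gave p = 0.1 for the 8 members without overlap, the smallest p that 3 against 3 libraries allow, and p = 0.2 for Folr2. With that limit none of the 27 such tests could pass, whatever the values. The lowest adjusted p was 0.123 by the same exact permutation test. In SW adipocytes all 9 ratios stayed below LFD without overlap, as did those of 95.2% of all genes. Between SW and HFD, Retnla and Timd4 were higher in SW without overlap, Mrc1, Folr2 and Clec10a were lower without overlap, and the other 4 members overlapped. Of all genes, 31.0% were higher and 7.67% lower in SW on this scale without overlap.

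**Figure D3:**
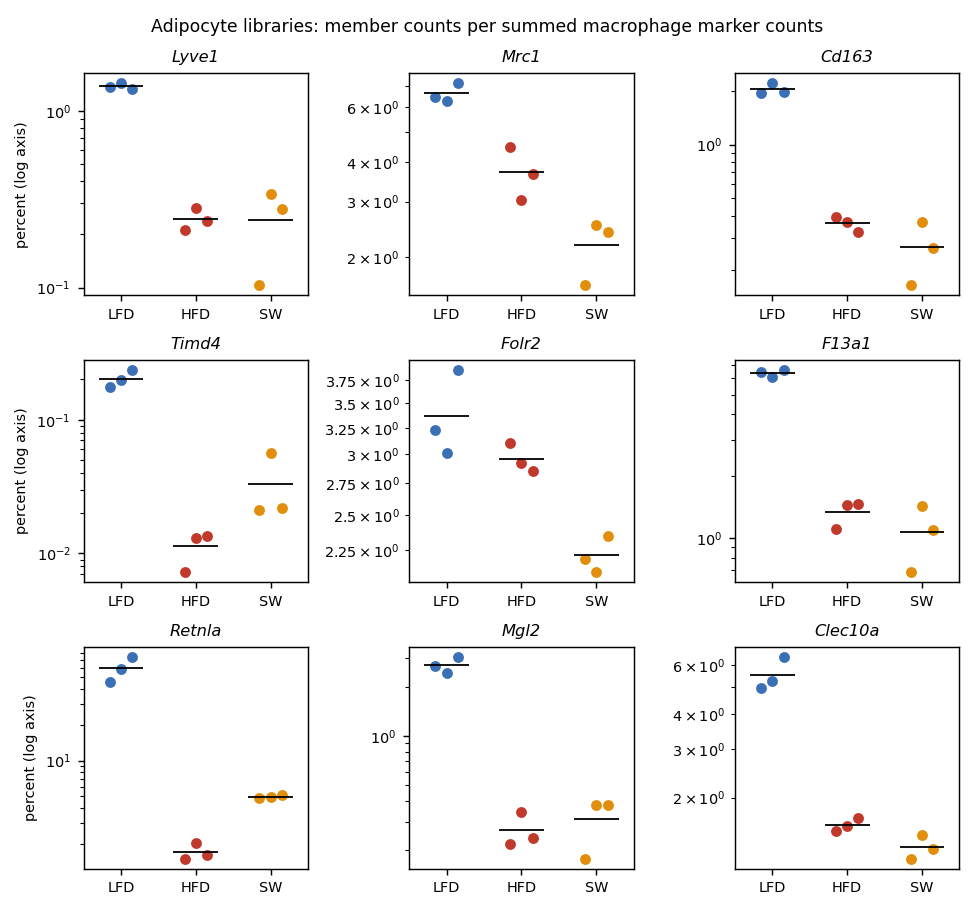
Counts of each member as a percentage of the summed counts of 12 macrophage markers of the same adipocyte library, on a log axis, with the mean of 3 as a line. The ratio is highest in the LFD libraries for all 9 members on average, by the widest margin for Retnla and the narrowest for Folr2.

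Other cell types that share members were followed as well. Lymphatic endothelial markers, of interest for Lyve1, were lower in HFD adipocytes for 4 of 6 tested and higher for 1, with a median log2 fold change of -1.41. Their sum was 105.4 to 207.2 CPM in LFD, 48.5 to 80.6 CPM in HFD and 76.3 to 91.9 CPM in SW libraries, and Prox1, which defines these cells, ranged from 0.0893 to 1.74 CPM. Their part in the Lyve1 values was not tested. Dendritic cell markers, of interest for Mgl2 and Clec10a, were lower for 2 of 9 and higher for 1, the latter being Ciita, a gene of antigen presentation. Markers of platelets and megakaryocytes, which also make F13a1, summed to 3.13 to 8.09 CPM in LFD and HFD adipocytes, and 3 of the 6 listed were tested. The part of platelets and megakaryocytes in the F13a1 values was not tested. Large peritoneal macrophages are another source of Timd4, and 4 of their 6 listed markers were tested. Of these, 1 was higher and 1 lower in HFD than in LFD adipocytes, and 2 did not pass. Gata6, 1 of the listed markers, was at 5.13 to 8.71 CPM in LFD and HFD adipocytes. The part of these cells in the Timd4 values was not tested. Monocyte markers summed to 31.6 to 61.1 CPM in LFD and 95.3 to 109.5 CPM in HFD adipocytes. Of 7 tested, 2 were higher and 0 lower in HFD, with a median log2 fold change of 0.87. The part of monocytes in the member values was not tested. For all of these lists, 26.5% of all genes were higher and 25.0% lower in HFD than in LFD adipocytes.

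Among 20 other genes of resident macrophages, 9 were higher and 3 lower in HFD than in LFD adipocytes, with a median log2 fold change of 0.64. Of all genes tested, 26.5% were higher and 25.0% lower. Siglec1, the sialoadhesin gene (3.72), and Vsig4, a complement receptor (2.72), were among those that rose. Cd209d, a lectin gene, fell (log2 fold change -1.20), as did Ltc4s, of leukotriene synthesis, and Ednrb, an endothelin receptor. Between HFD and SW, 2 of the 20 rose, Ltc4s (1.34) and Cd209d (1.19), and 4 fell, Siglec1 most (-2.11). Among all genes 15.6% rose and 15.9% fell, so these counts are near the general share and no result about the list. Against LFD, 8 were still higher in SW, where 10.9% of all genes were, and the 12 others did not pass.

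Of the IL-4 and IL-13 pathway, 23 genes that are not members were listed and 17 tested in adipocytes, of which 7 were higher and 1 lower on the HFD. Of all genes, 26.5% were higher and 25.0% lower there, and 15.6% were higher and 15.9% lower in SW than in HFD. Arg1, the arginase gene and a classic target of the pathway, rose from 0.395 to 0.928 CPM in LFD to 7.66 to 11.5 CPM in HFD libraries (log2 fold change 3.81, SE 0.39, adjusted p = 4.5e-05, edgeR), where Retnla fell. Stat6 rose as well (0.88), with Jak1 (1.03) and Il33 (1.07), and Pparg fell (-0.93). In SW adipocytes 4 of the 17 were below HFD, Arg1 furthest (-2.26), and Socs1, an inhibitor of the signal, was above (1.56). Of 12 tested growth and maturation signals of macrophages, 9 were higher and 1 lower in HFD adipocytes. Csf2ra (2.96), Csf1r (2.82) and Il10 (2.74) rose most, and Il34, which encodes the second ligand of CSF1R, fell (-1.20).

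In SVCs the single LFD library that could be used allows no test against the other diets. Its Retnla level was 4423 CPM (95% exact binomial interval 4368 to 4477), which covers counting error only, as do the intervals that follow. In the HFD libraries Retnla was at 187.0 CPM (A) and 823.6 CPM (B), and in the SW libraries at 987.9, 707.2 and 1234 CPM. The LFD library was thus 8.75 times the HFD mean and 4.53 times the SW mean, without a replicate check. Against library A alone it was 23.7 times higher and against library B alone 5.37 times. Over the summed macrophage markers, the Retnla ratio was 52.5% in LFD, 1.81% and 4.23% in HFD and 4.99% to 6.00% in SW libraries. Those markers summed to 8431 CPM in the LFD, 10325 and 19495 CPM in the HFD and 14090 to 20560 CPM in the SW libraries.

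Mgl2 was at 365.2 CPM in the LFD library (interval 349.8 to 381.2), 18.7 and 141.1 CPM in HFD and 253.8, 159.4 and 269.9 CPM in SW libraries. Cd163 was at 136.3 CPM in LFD (interval 126.9 to 146.2), 30.9 and 59.6 CPM in HFD and 44.2 to 56.8 CPM in SW libraries.

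The LFD library had the fewest counts of the SVC libraries, 5781902, and the largest share of hemoglobin transcripts, 5.15%. It lay above all 5 other SVC libraries for Lyve1, Cd163, Timd4, Retnla and Mgl2. The share of all genes with the LFD library on top was not computed, so lying above the rest is no result about the members. Timd4 and Lyve1 are close calls by this measure: Timd4 was at 9.60 CPM in LFD (interval 7.23 to 12.5) against up to 9.17 CPM in SW, and Lyve1 at 72.8 CPM (interval 66.0 to 80.1) against up to 67.3 CPM in HFD. Lymphatic endothelial markers, a source of Lyve1, summed to 598.4 CPM in the LFD library, 74.0 to 87.7 CPM in HFD and 207.6 to 313.6 CPM in SW libraries, and their part in the Lyve1 values was not tested. Folr2, F13a1 and Clec10a lay within the range of the other libraries. Mrc1, at 237.7 CPM, was below both HFD libraries and above the 3 SW libraries.

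Between SW and HFD SVCs, Mrc1 was the one member that changed. It was at 333.0 and 306.3 CPM in the HFD libraries, and at 84.5, 133.5 and 110.5 CPM in the SW libraries. All SW values lay below the HFD values, a 2.92-fold fall (log2 fold change -1.55, SE 0.25, adjusted p = 0.0362, edgeR). Over the 16319 genes tested, 11.7% fell and 5.71% rose. The direction of Mrc1 held without any 1 library, but the adjusted p was above the threshold in 4 of 5 such fits, up to 0.155 (edgeR). Timd4 and Mgl2 also did not overlap between the groups, but did not pass, and the groups did not overlap for 58.6% of all genes.

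Of the other resident macrophage genes, 3 of 20 fell in SVCs between HFD and SW and 17 did not pass. Among all genes 11.7% fell and 5.71% rose, so this count is near the general share. Those 3 were Hpgd (-1.58), Selenop (-1.56) and the iron exporter Slc40a1 (-1.02). Of the 20 tested genes of the IL-4 and IL-13 pathway that are not members, the receptor gene Il13ra1 fell (-1.73) and Tgm2, which encodes a transglutaminase, rose (1.09). Among the growth and maturation signals Csf1 (1.19) and Il34 (0.998), the ligands of CSF1R, rose, and the receptor genes Tgfbr1 (-2.30) and Nr3c1 (-2.27) fell. These 9 genes kept their direction with any 1 library left out, but none passed without SW library A, B or C, where the adjusted p reached 0.188 (edgeR), and 2 passed without HFD library A. Without HFD library B, 10 of the 20 other resident macrophage genes were higher and 4 lower in SW, and 6 and 4 of the IL-4 and IL-13 pathway.

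The values of the other members depended on which HFD library was kept. With both, Mgl2 had a log2 fold change of 1.51 (SE 0.79, adjusted p = 0.19, edgeR), Timd4 1.11 (SE 0.70, adjusted p = 0.262) and Retnla 0.95 (SE 0.64, adjusted p = 0.287). Without library B, where the lone HFD library A is assumed to vary like the others, 7 members passed: Mgl2 (3.61), Timd4 (2.82), Retnla (2.39), Clec10a (1.46), Lyve1 (1.46) and F13a1 (0.64) were higher in SW and Mrc1 (-1.60) lower. The share of all genes called was then 39.1%, against 17.5% with both libraries and 3.21% without library A. Without library A, 0 passed in edgeR and 2 had an unadjusted p under 0.05, and Lyve1 (-0.40), Cd163 (-0.16) and Clec10a (-0.17) were lower in SW.

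**Figure D4:**
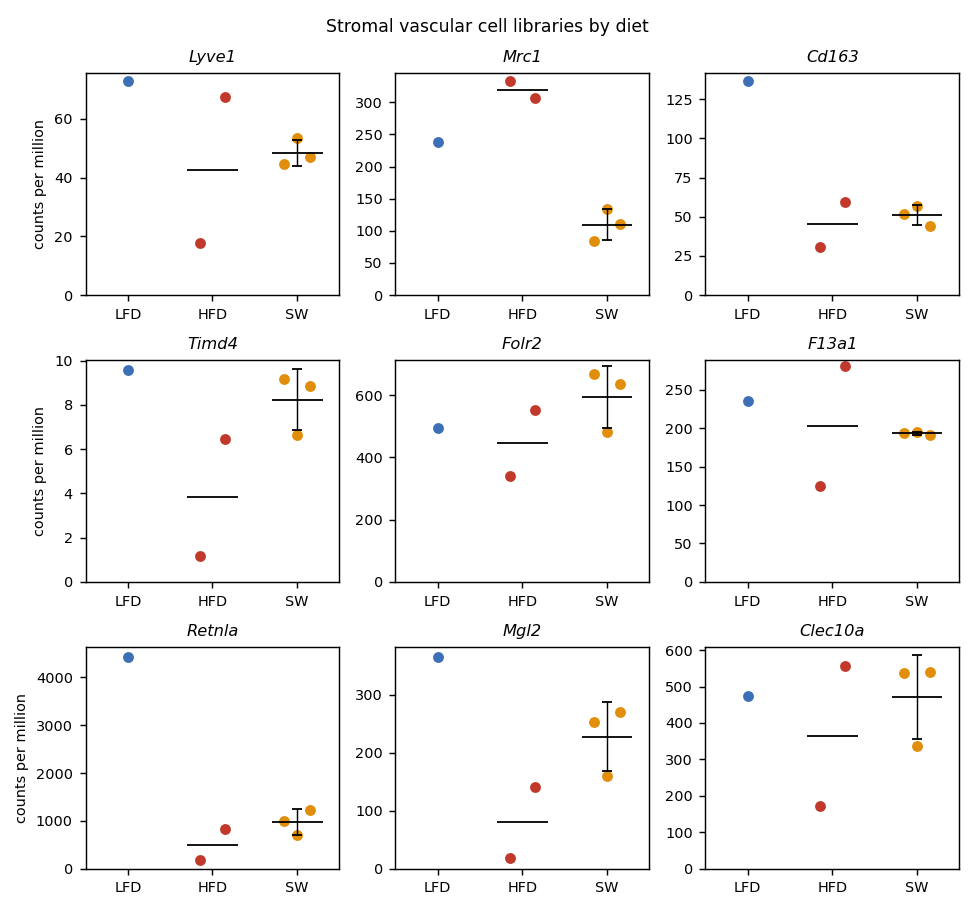
The same plot for the 6 SVC libraries, with 1 LFD library, 2 HFD libraries with their mean, and 3 SW libraries with mean and 1 SD. The HFD points lie wide apart for most members, close together for Mrc1, and the LFD point is far above the rest for Retnla.

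The fractions were compared with both scaled together. In SW mice 8 of the 9 members were higher in SVCs than in adipocytes, against 35.6% of 17441 genes higher and 32.8% lower. Mgl2 differed most, from 15.0, 22.0 and 21.1 CPM in adipocytes to 298.2, 195.1 and 321.9 CPM in SVCs, 14.0-fold (log2 fold change 3.81, SE 0.56, adjusted p = 5.0e-05, edgeR). Clec10a followed at 6.51-fold, Folr2 at 4.87-fold, Timd4 at 4.63-fold, Lyve1 at 3.92-fold, Cd163 at 3.63-fold, Retnla at 3.55-fold and F13a1 at 3.43-fold. None of these 8 overlapped between the fractions, and 35.8% of all genes were higher in SVCs without overlap.

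Mrc1 did not pass. Its SW values were 137.1, 147.2 and 133.6 CPM in adipocytes and 99.2, 163.3 and 131.8 CPM in SVCs, which overlapped (log2 fold change -0.08, SE 0.22, adjusted p = 0.75, edgeR). Pan-macrophage markers, in comparison, were higher in SVCs for 10 of 12 in SW mice.

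In HFD mice 7 members were higher in SVCs, where 16.2% of all genes were higher and 12.9% lower, and Mrc1 and Cd163 did not pass. That count rested on SVC library B: it was 8 without library A and 0 without library B, where 1 member had an unadjusted p under 0.05. Of all genes, 40.7% were called without library A and 14.7% without library B, against 29.1% with both. The count was also 0, with 8 at an unadjusted p under 0.05, when the SW and LFD libraries were left out of the edgeR fit, where 13.8% of all genes were called, and 8 with DESeq2, where 33.9% were. Scaled over both fractions, the members in library A stood at 0.927 to 1.49 times the mean of the HFD adipocyte libraries, with a median of 1.22. Library B had 1.18 to 8.33 times that mean, with a median of 4.01. This pair of ranges was looked at after the values were seen. Adipoq was at 12.8 CPM in library A, the lowest of the SVC libraries, and its hemoglobin share, given above, lay within the 0.0614% to 0.322% of the adipocyte libraries. That range takes in all diets. The HFD adipocyte libraries alone were at 0.0614% to 0.0822%, below library A at 0.287%. In library A, 6 members lay above the range of the HFD adipocyte libraries and 3 within it. Its members were thus closer in level to those libraries than the members of library B were. Its hemoglobin share lay above the HFD adipocyte libraries and its Adipoq level far below them. The part of either in the member levels was not tested.

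**Figure D5:**
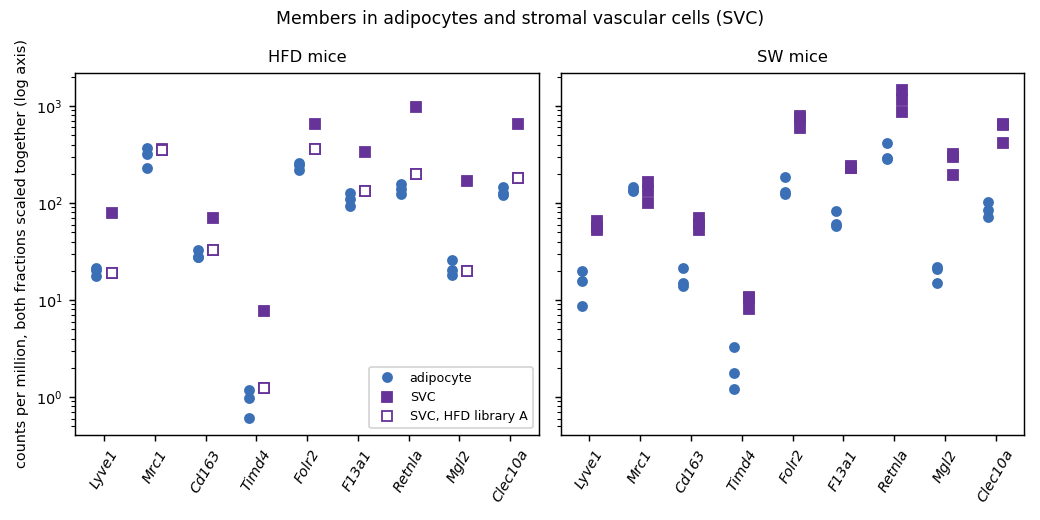
Members in each HFD and SW library of adipocytes (circles) and SVCs (squares), scaled over both fractions, on a log axis, with HFD library A of the SVCs as an open square. In SW mice the fractions are apart for all members but Mrc1, and in HFD mice that library lies close to the adipocyte libraries.

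For Folr2 the log2 fold change between HFD and SW was 1.21 higher in SVCs than in adipocytes (SE 0.35, adjusted p = 0.023, edgeR), since it fell in adipocytes and had a log2 fold change of 0.42 in SVCs, where it did not pass (adjusted p = 0.337, edgeR). Over all genes 11.4% had a more positive change in SVCs and 15.7% a more negative one. The other 8 members did not pass this test, with Mgl2 at 1.69 (SE 0.77, adjusted p = 0.121, edgeR) and Cd163 at 1.05 (SE 0.42, adjusted p = 0.0794, edgeR). The Folr2 difference was 0.84 without HFD library A of the SVCs (adjusted p = 0.0929, edgeR), and 7 members passed without library B, where 38.5% of all genes were called, against 27.1% with both.

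The genes whose levels ran most like a member over all 15 libraries were found by Pearson's r of log2 CPM, among genes whose log2 CPM averaged 1 or more. The points share the large difference between the fractions, so these values describe and do not test. Folr2 ran closest to Lrrc25 (r = 0.994), Mgl2 to Cd209b (0.988), Clec10a to Smyd5 (0.989) and Retnla to Slc37a4 (0.984). For Timd4 the nearest were Cd209g (0.972) and Cd209d (0.969), for Lyve1 P2ry13 (0.968), for Cd163 Col4a5 (0.971), and for F13a1 Adamts16 (0.973). Among the members themselves the closest pair was Lyve1 with F13a1 (0.966).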

How the data were processed

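Adipocyte and SVC polyA RNA was sequenced. The submitters' processing notes name Bowtie2, RSEM, limma and the build mm9; versions and annotation are not given in the sources used here. The authors deposited RSEM's estimated counts for each gene, as whole numbers and not normalized. The labels list 18 libraries in 26 records, 8 libraries having 2 runs. Titles mark each run as paired-end or single. Every adipocyte library has a paired-end run and every SW library of SVCs has both kinds. Some HFD and LFD libraries of SVCs have single runs only. Read layout thus differed between groups of SVCs and between fractions, and its part in those comparisons was not tested. Column names give fraction, diet and a number found in no label, so 15 columns served as replicates of their group; 3 others whose names match no group's labels were not used. Whether libraries came from separate mice is not in the labels, and p-values measure the spread between libraries. No pair of libraries of a group agreed within counting noise.

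Each fraction was fitted on its own, and both together for fraction comparisons, with edgeR 4.0.16 in R 4.3.3 (filterByExpr, minimum count 10, TMM factors, robust quasi-likelihood fit, Benjamini-Hochberg adjustment over all genes tested, threshold 0.05). All 9 members passed the filter in each fit. The fit was tested on simulated data. Standard errors are the absolute log2 fold change over the root of F. Per-length levels used GENCODE M21, which holds 37607 of the 39017 gene IDs. Alternatives were DESeq2 1.42.0, limma-voom 3.58.1, RLE and upper-quartile factors, other filters, only the groups compared, and each library left out; leaving out mitochondrial and hemoglobin transcripts was added after seeing the data. Named genes are the members, the 3 genes of each list with the largest change past the threshold, those set beside a member, and those with the most similar levels. Where 5 or fewer genes of a list moved one way, others of them were named after their values were seen, as were marker genes that define a cell type. Some genes that this rule names are not reported here. Adgre1, Chil3, Selenop and Siglecf were matched by gene ID. The members and lists were chosen with earlier results of these data known. Python 3.11.15 was used for the rest.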

Additional observations from a re-analysis of the deposited data

Results flagged for a closer look

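Folr2 was noted for a difference between fractions. Its change from HFD to SW was 1.21 higher in SVCs than in adipocytes on the log2 scale (SE 0.35, adjusted p = 0.023 by edgeR's quasi-likelihood test of the interaction). It fell in 3 of 3 SW adipocyte libraries below the HFD range, while in SVCs the SW libraries, at 482.2 to 668.9 CPM, overlapped with the HFD libraries, at 339.2 and 553.2 CPM. Left out in turn, HFD library A of the SVCs, SW libraries B and C of the adipocytes and SW library A of the SVCs each took the adjusted p (edgeR) above the threshold, to at most 0.0929, and the difference ranged from 0.84 to 1.61.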

How the results depend on the processing

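No paired analysis was possible because the numbers in the column names are in no label and the groups share none of them. With every library kept, the count of members called moved by over 1.5 times only between SVCs and adipocytes in HFD mice and in the interaction. Between the fractions it went from 7 to 4 with limma-voom and 0 with only the groups compared. Of all genes, 28.3% and 13.8% were called there, against 29.1%. In the interaction it went from 1 to 2 with DESeq2, where 35.1% of all genes were called, against 27.1%. With 1 library left out, 5 to 6 members were called in adipocytes between HFD and LFD. Between SW and HFD 2 to 6 were, and between SW and LFD 3 to 4. The shares of all genes called were 39.0% to 48.7%, 10.3% to 29.0% and 11.3% to 14.6%, in that order. Between fractions in SW mice 8 passed each time, with 61.5% to 66.3% of all genes. Without 1 SW library 0 passed in SVCs, with 0.00% to 3.59% of all genes. Without 1 adipocyte library 5 to 6 passed between fractions in HFD mice, with 18.8% to 22.1% of all genes. In the interaction 0 to 1 passed without 1 adipocyte or SW library, with 19.9% to 29.0%. All 9 members stayed below LFD over macrophage markers with any 1 library left out. With every library kept, 98.0% of all genes were lower in HFD than in LFD on this scale, so staying below is no result about the members. With Csf1r alone or without Lyz2, Cd68 and Cd14, 8 members did, Folr2 being the exception. Of the values of single genes, 800 kept direction and side of the threshold, 62 lost and 18 gained a call, and 23 turned. The cause was not tested. Those that turned with every library kept were F13a1 in SVCs (0.0394 with limma-voom), and in the interaction Timd4 (0.0267 with DESeq2, 0.646 with limma-voom, 0.0388 with RLE factors) and Retnla (0.14 with limma-voom); none had passed the threshold. With 1 library left out, log2 fold changes crossed 0 for Mgl2 between SW and HFD adipocytes (-0.24 to 0.0127), for Lyve1 (-0.0827 to 0.45), Cd163 (-0.41 to 0.0266) and Timd4 (-0.32 to 0.47) between SW and LFD adipocytes, for Lyve1 (-0.40 to 1.46), Cd163 (-0.16 to 0.72), F13a1 (-0.46 to 0.64) and Clec10a (-0.17 to 1.46) in SVCs, for Lyve1 (-0.0862 to 2.002) and Mgl2 (-0.12 to 2.96) between fractions in HFD mice, and in the interaction for Lyve1 (-0.0346 to 1.956), Timd4 (-0.81 to 1.72) and Retnla (-0.97 to 1.22). Depth limits Timd4 most, at 9 to 161 counts per library; a count of 0 would allow 3 counts.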

Other observations

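Other markers give the setting of the members in adipocytes. Of all genes, 26.5% were higher and 25.0% lower in HFD than in LFD, and 10.9% higher and 6.18% lower in SW than in LFD. Blood endothelial markers were lower in HFD than in LFD for 5 of 6, and lower in SW than in LFD for 6 of 6. Mesothelial markers were lower in HFD for 4 of 6, adipocyte markers for 5 of 7 and red cell genes for 5 of 5. Mast cell markers were higher in HFD for 4 of 5 and in SW against LFD for 4 of 5. Of the 12 lipid-associated macrophage markers, 12 were also higher in SW than in LFD and 1, Lipa, was lower in SW than in HFD (log2 fold change -1.18).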
